A study of Mus musculus with 12 samples.

Results

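Lipopolysaccharide (LPS), the glycolipid of the outer membrane of Gram-negative bacteria, was added in culture to monocytes of mice that had received succinate, and their RNA was compared with that of unstimulated monocytes of mice treated in the same way. The comparison takes 6 of the 12 RNA-seq libraries of the series, chosen by their labels alone: 3 libraries of succinate mice after 4 h of LPS and 3 libraries of succinate mice with no stimulus. Both groups share 300 mM succinate given for 7 days and a sort of bone-marrow cells that were CD11b+, a myeloid integrin, and Ly6C-high, as classical monocytes are. The labels give no strain, sex, age, route of succinate or dose of LPS. The other 6 libraries come from mice without succinate, again 3 with 4 h of LPS and 3 without. They set the response of the succinate mice beside that of control mice. They also share the filter, scaling and fit of the main test, where they add to its estimate of spread. Of 54532 genes listed, 14324 had enough counts to be tested, and the response is described across all of them. The labels do not say whether the replicates of a group are separate mice, and p-values thus reflect the spread among these samples alone, possibly a technical one.

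LPS is bound by Lbp and Cd14 and handed to the receptor complex of Tlr4 and Ly96 (MD-2) on the monocyte surface. From there the adaptors Tirap and Myd88 lead to the kinases Irak4 and Irak1 and to the transcription factor NF-kB. NF-kB switches on cytokines, chemokines and its own inhibitors. The adaptors Ticam2 and Ticam1 lead instead to Tbk1, Irf3 and type I interferon. Its receptor in turn switches on antiviral genes through factors such as Stat2 and Irf9. Succinate, a metabolite of the mitochondrial tricarboxylic acid (TCA) cycle, is also sensed at the cell surface by the receptor Sucnr1. Activated macrophages make itaconate with the enzyme Acod1, and itaconate inhibits succinate dehydrogenase, the enzyme that oxidises succinate.

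Total counts of the 6 libraries lay between 16596276 and 18306747, and levels are given as CPM (counts relative to library size, scaled by trimmed means). Changes are log2 fold changes of LPS against no LPS ± SE, and a gene was called higher or lower at an adjusted p below 0.05 in edgeR's quasi-likelihood test over all 14324 genes. The median SE was 0.19. LPS libraries and unstimulated libraries lay apart along a first principal component with 67% of the variance. The second component (13.8%) spread the replicates of both groups. Mitochondrially encoded genes took 0.901% to 1.019% of the counts without LPS and 1.22% to 1.261% with it. The libraries also differ in 5 genes, S100a4, Rpl24, Rpl10-ps3, Gm14303 and Rpl35a-ps2, whose mean log2 CPM was 3.14 and 3.94 in unstimulated replicates 2 and 3, 1.42 in unstimulated replicate 1 and 0.83 to 1.3 in the 3 LPS libraries. This split into 2 library classes therefore overlaps with the comparison, and counts of called list members are also given with unstimulated replicate 1 alone against the 3 LPS libraries where they move by more than 1.5 times (a fit that assumes that this replicate varies like the other groups). In that fit Rel, Nr4a3, Ccl2, Cx3cl1, Zfp36l1, Naip6, Ctsc, Spic, Siglech, Cd14 and Ccr2, which are given below as changed, were not called. A fit of all 12 libraries with library class as a term called 1743 genes higher and 1910 lower, where the main fit called 2013 and 2318. Of the 4331 genes called in the main fit 3336 kept call and direction. Beyond these fits the part of the split in the results was not tested.

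The defining markers of the sorted cells were present. Ly6c2, which encodes the Ly6C antigen of the sort, had 621, 485 and 610.4 CPM in the unstimulated libraries and 1005, 1195 and 1632 CPM in the LPS libraries (1.16 ± 0.16, adjusted p = 4.37e-05). Itgam, the CD11b chain, had 163, 157 and 175 CPM without LPS and 162, 165 and 170.4 CPM with it, with overlapping groups (0.01 ± 0.10, adjusted p = 0.973). The growth factor receptor Csf1r was not called (444 ± 100.4 to 306 ± 94.2 CPM, -0.53 ± 0.23, adjusted p = 0.095), and Ccr2, the receptor that lets monocytes leave the marrow, fell (83.9 ± 41.8 to 33.1 ± 15.1 CPM, -1.34 ± 0.31, adjusted p = 0.00425). Neutrophil markers, described further below, were present as well: 7 of 17 rose, among them the granule genes Ctsg, Prtn3, Camp and Ngp, and 2 fell. The serine protease Elane had 745, 879 and 1109 CPM without LPS and 1172, 1257 and 1233 CPM with it and myeloperoxidase Mpo 888, 1401 and 1814 CPM without LPS and 1183, 1319 and 1332 CPM with it, and neither was called (Mpo had -0.10 ± 0.33, and 0.57 with library class as a term). Ly6g, the antigen of mature neutrophils, had 6.29, 3.15 and 3.3 CPM without LPS and 7.9, 5.41 and 6.08 CPM with it and was not called.

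LPS raised 2013 genes and lowered 2318 in the cells of succinate mice, that is 14.1% and 16.2% of the genes tested, or 30.2% in either direction. Counts of called members in every gene list and marker list are to be read beside these shares. At least 2-fold changes made up 1019 of the rises (7.11%) and 967 of the falls (6.75%). The rises reached further in the fit: 75 genes rose by 32-fold or more and 59 by 16- to 32-fold, against 12 and 15 falls of that size, while below 2-fold the falls outnumbered the rises (1351 against 994). These sizes are fitted, and those of genes with almost no counts in 1 group depend on the prior count of the fit. The raised genes took 13.17 ± 0.73% of all counts without LPS and 27.43 ± 1.37% with it, and the lowered genes went from 31.37 ± 1.58% to 17.03 ± 0.20% (SD, n = 3). Of the summed gain in CPM, 50% came from 84 genes, and of the summed loss, 50% came from 117 genes. Of the 1019 genes raised at least 2-fold, 351 averaged under 1 CPM without LPS, against 63 of the 967 lowered at least 2-fold. Of all 14324 genes tested 2191 did. The filter on low counts shapes this contrast. A gene under 1 CPM without LPS could pass it through the LPS group, but less easily if LPS lowered it further. The contrast is therefore not read as a result about the response. The plot of fold change against level shows the sizes of the rises and falls.

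**Figure D1:**
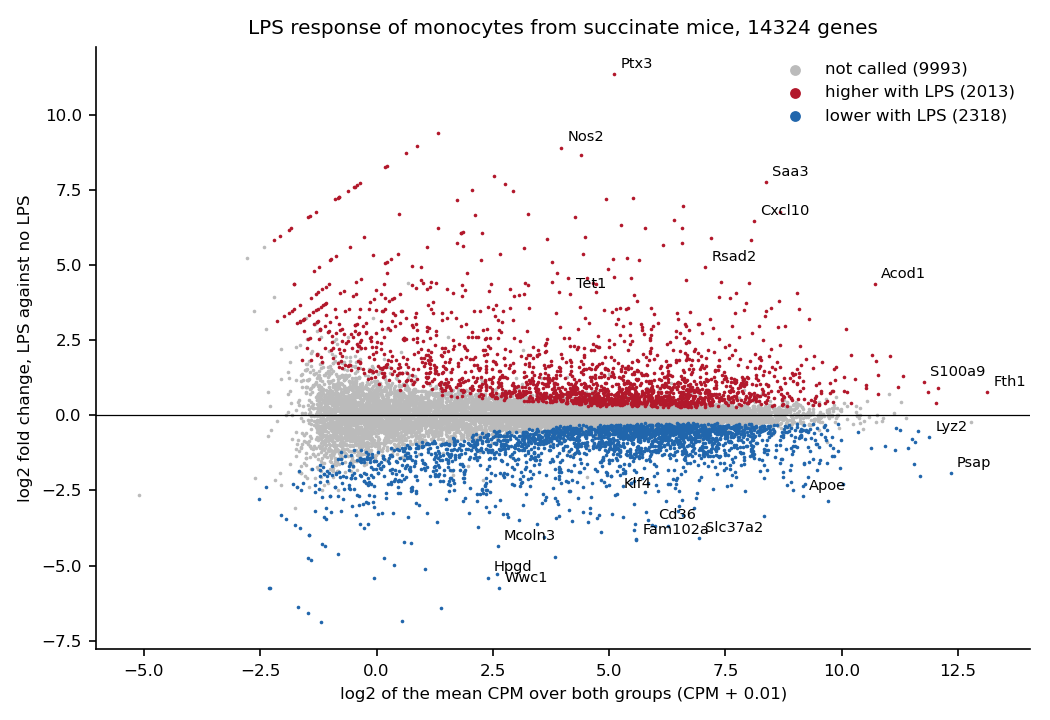
Each point is 1 of 14324 tested genes, with the log2 of its mean CPM over the 6 libraries on the x axis (0.01 CPM added) and its log2 fold change with LPS on the y axis. The 2013 raised genes are red, the 2318 lowered genes blue and the others grey, and the red points reach above 11 on the log2 scale while no blue point lies below -7.

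Fth1, S100a9 and S100a8 were among the 10 genes with the largest gains in CPM. Fth1, the iron-storing heavy chain of ferritin, had 8168, 6036 and 5753 CPM in the unstimulated libraries and 10480, 11140 and 12260 CPM in the LPS libraries. The calprotectin subunit S100a9 had 2946, 1434 and 2272 CPM without LPS and 4420, 4625 and 5266 CPM with it, and its partner S100a8 had 1957, 902 and 1573 CPM without LPS and 3271, 3403 and 4274 CPM with it. In each of these 3 genes all LPS libraries lay above all unstimulated ones, and the rises were 0.76 ± 0.15, 1.11 ± 0.27 and 1.30 ± 0.28, but with unstimulated replicate 1 alone none of the 3 was called. Acod1 (chr14:103046977-103056573, GRCm38) had 200.0, 159 and 106 CPM in the unstimulated libraries and 2676, 3308 and 3613 CPM in the LPS libraries, a rise that held in every setting tried (4.37 ± 0.23, adjusted p = 4.62e-09). The autophagy receptor Sqstm1, the oxidase subunit Cybb, the acute-phase protein Hp, the lectin receptor Clec4e, the kinase Mapkapk2 and the granule protein Ngp completed the 10 largest gains, of which Sqstm1 and Ngp, too, were not called with unstimulated replicate 1 alone. The 10 largest losses were those of Psap, Gpnmb, Ahnak, Thbs1, Lyz2, Ctsb, Lgals3, Vim, Lrp1 and Mpeg1, and of these Vim was not called with unstimulated replicate 1 alone. Gpnmb, a membrane glycoprotein of phagocytes, had 5313, 4023 and 6469 CPM in the unstimulated libraries and 967, 1268 and 1675 CPM in the LPS libraries (-2.02 ± 0.22, adjusted p = 6.35e-06). Per length of transcript, S100a9 stood at 14620 ± 4689 TPM (a length-corrected share of transcripts) without LPS and 29860 ± 2241 TPM with it (SD, n = 3).

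At the top of the pathway the receptor itself was not called. Tlr4 had 88.2, 101 and 89 CPM in the unstimulated libraries and 96.4, 92.3 and 79 CPM in the LPS libraries (-0.06 ± 0.18, adjusted p = 0.845), and Ly96, which binds the lipid, had 4.7, 2.69 and 3.75 CPM without LPS and 4.34, 5.64 and 6.89 CPM with it (adjusted p = 0.107). Of 28 genes of the receptor complex and its adaptors 6 rose and 5 fell, shares near those of all genes (14.1% and 16.2%), with a median log2 fold change of 0 (-0.017 over all genes tested). The risers were the co-receptor Cd14 (0.71 ± 0.16), Lbp (0.51 ± 0.15), Myd88 (0.85 ± 0.12), Traf3 (0.33 ± 0.11), the inhibitory kinase homologue Irak3 (2.75 ± 0.16) and the kinase Ikbke. Irak3, which blocks the release of Irak1 from the receptor, went from 69.3 ± 15.3 to 466 ± 18 CPM. Ikbke (chr1:131254343-131279606), a relative of Tbk1, had 90.6, 111 and 97.5 CPM in the unstimulated libraries and 751, 751 and 829.5 CPM in the LPS libraries, with narrow spread in both groups (2.96 ± 0.11, adjusted p = 4.86e-10). The 5 that fell were Cd180 (-0.96 ± 0.19) and its partner Ly86 (-0.98 ± 0.26), which together resemble the LPS receptor, and Ripk1, Tab1 and Irak4, each by less than 0.5 on the log2 scale. Compared with unstimulated replicate 1 alone 3 rose and 3 fell, with Cd14, Lbp, Traf3, Tab1 and Irak4 not called, and without LPS replicate 1 the falls numbered 3. Traf3 lost its call in 7 of 17 alternative settings and Tab1 in 8.

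The NF-kB system rose nearly as a whole: 9 of its 11 subunits and IkB proteins rose and none fell, with a median of 1.58. Nfkbia (IkB-alpha, the inhibitor that NF-kB induces against itself) had 241, 176 and 134 CPM in the unstimulated libraries and 936, 977 and 823 CPM in the LPS libraries (2.31 ± 0.17, adjusted p = 1.04e-07). Nfkb1, the p105 precursor, had 272, 255 and 244 CPM without LPS and 823, 990.4 and 1033 CPM with it (1.89 ± 0.14, adjusted p = 1.31e-07). The largest change was that of Nfkbiz, a nuclear IkB needed for secondary genes such as Il6 (35.3 ± 8.64 to 264 ± 74.2 CPM, 2.90 ± 0.22). Bcl3 (1.83 ± 0.18), Nfkb2 (1.79 ± 0.14), Relb (1.58 ± 0.13), Nfkbie (1.58 ± 0.16), Nfkbib and Rel (0.45 ± 0.13) followed. Rela, the main activating subunit, was at 244 and 279 CPM on average (0.19 ± 0.16, adjusted p = 0.418) and Nfkbid at 0.29 ± 0.14, neither called.

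Factors of the immediate early response were mixed at 4 h. Of 24 AP-1, early growth response and related factors 7 rose and 7 fell (29.2% each, where 14.1% and 16.2% of all genes rose and fell). Those that fell included the classical early genes: Fos had 71.7, 64.5 and 83.5 CPM in the unstimulated libraries and 15.6, 13 and 18 CPM in the LPS libraries (-2.24 ± 0.14, adjusted p = 1.93e-08), Jun went from 293 ± 5.8 to 93.9 ± 21.6 CPM (-1.64 ± 0.19), and Nr4a2 (-3.29 ± 0.20), Egr1 (-1.84 ± 0.29) and Egr2 (-0.91 ± 0.22) were lower too. Batf, an AP-1 partner of Irf4 and Irf8, had 6.64, 5.78 and 7.05 CPM in the unstimulated libraries and 62.2, 74.7 and 89.3 CPM in the LPS libraries (3.54 ± 0.17, adjusted p = 2.67e-09), and Myc (2.57 ± 0.37), Batf3 (2.88 ± 0.68), Maff (1.57 ± 0.21), Nr4a3 (1.52 ± 0.30) and Jund (1.15 ± 0.21) also rose. Atf3, Junb, Ier2, Ier3 and Nr4a1 all lay within 0.15 of 0 on the log2 scale and were not called.

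Chemokines had the highest median change of the 32 gene lists described here. Of 18 tested 16 rose and none fell, with a median of 4.46, or 4.10 when the 3 members with 0 to 3 counts in the unstimulated group are set at their bound. Summed over the list, they went from between 193.8 and 313 CPM to between 2943 and 3814 CPM. The monocyte and T-cell attractants Ccl3 and Ccl4 are neighbours on chromosome 11, and Ccl4 (chr11:83662584-83664683) had 13.4, 7.76 and 6.6 CPM in the unstimulated libraries and 461, 616 and 494 CPM in the LPS libraries (5.82 ± 0.23, adjusted p = 6.63e-10). The neutrophil attractants Cxcl1, Cxcl2 and Cxcl3 rose by 7.48 ± 0.62, 4.40 ± 0.38 and 4.51 ± 0.46, and Cxcl2 had 38.9, 17.3 and 13.1 CPM without LPS and 443, 628 and 396 CPM with it. Cxcl10, the interferon-inducible ligand of Cxcr3, had 8.63, 5.84 and 4.38 CPM without LPS and 516, 519.7 and 616 CPM with it. Ccl22, a ligand of Ccr4, had 3 counts over the unstimulated group and 747 over the LPS group, a ratio of 232 (95% counting interval 79.2 to 1130). Cxcl11 and Cxcl9, both at 0 counts without LPS, were at least 24.6-fold and 13.7-fold higher (against 3 counts over the group). These intervals and floors cover counting error only. The monocyte attractant Ccl2 rose as well (3.82 ± 1.79 to 15.3 ± 8.06 CPM, adjusted p = 0.000957), and Ccl6 and Ccl24 were not called.

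Among interleukins, growth factors and TNF family ligands 24 of 37 rose and 6 fell (median 2.24). Il1b (chr2:129364570-129371139), the pyrogenic interleukin that the inflammasome releases, had 9.16, 6.48 and 6.71 CPM in the unstimulated libraries and 515, 797 and 1109 CPM in the LPS libraries, so the replicates with LPS differed by more than 2-fold among themselves while the groups did not overlap. Il1a had 0.764, 0.525 and 0.512 CPM without LPS and 50.1, 82.4 and 139 CPM with it (7.22 ± 0.50), and Il6, the inducer of acute-phase proteins, had 0.705, 0.467 and 0 CPM without LPS and 27.1, 33.8 and 54 CPM with it (6.60 ± 0.49). Tnf had 50.4, 34.1 and 32.2 CPM without LPS and 413, 516 and 387 CPM with it (3.49 ± 0.19, adjusted p = 6.26e-09). Il12a, the p35 chain of IL-12, rose from 2.41 ± 0.646 to 50.4 ± 15.8 CPM and its partner Il12b, also in IL-23, from 0.0948 ± 0.164 to 6.96 ± 2.9 CPM. Endothelin (Edn1) had 3.64, 2.22 and 1.71 CPM in the unstimulated libraries and 173, 197 and 194 CPM in the LPS libraries (6.22 ± 0.21, adjusted p = 4.05e-10). Brakes rose beside these: Il10 had 0.764, 0.175 and 0.284 CPM without LPS and 58.6, 76.5 and 47.4 CPM with it, and the receptor antagonist Il1rn, already high, went from 472 ± 118 to 1873 ± 730.1 CPM (1.99 ± 0.24). The interferon gene Ifnb1 was too low to test, at 0.269 CPM on average with LPS and no count without it. The growth factor Csf1, which keeps monocytes and macrophages alive, went the other way, with 866, 821 and 842 CPM without LPS and 119, 159.6 and 171 CPM with it (-2.49 ± 0.19, adjusted p = 1.63e-07). Tnfsf12 (-2.23 ± 0.13), Tnfsf13 (-1.42 ± 0.30), Tnfsf14 and Vegfa fell as well, as did Il17ra, a receptor chain and not a ligand, which the list also holds.

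Inhibitors of cytokine signalling went both ways. Of 37 tested 15 rose (40.5%, where 14.1% of all genes did) and 6 fell (16.2%, the share of all genes), with a median of -0.02. Tnfaip3 (A20), which removes activating ubiquitin chains in the NF-kB pathway, had 112, 85.7 and 59.1 CPM in the unstimulated libraries and 922, 1138 and 927 CPM in the LPS libraries (3.54 ± 0.19, adjusted p = 6.01e-09), and its binding partners Tnip3 (3.80 ± 0.30) and Tnip1 (2.21 ± 0.14) rose too. The STAT inhibitors Socs3 (14.9 ± 1.69 to 324 ± 52.4 CPM, 4.45 ± 0.19), Cish (3.59 ± 0.40) and Socs1 (2.20 ± 0.40) rose, as did the RNA-degrading enzyme Zc3h12a (1.78 ± 0.16) and the checkpoint ligand Cd274 (2.16 ± 0.17). The fallers included the RNA-binding destabilisers Zfp36l2, with 898, 1000 and 1036 CPM without LPS and 197, 194 and 215 CPM with it (-2.27 ± 0.12, adjusted p = 3.36e-09), and Zfp36l1 (-2.11 ± 0.41). Their relative Zfp36 was not called (-0.09 ± 0.13), nor was the phosphatase Dusp1 (-0.05 ± 0.15).

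**Figure D2:**
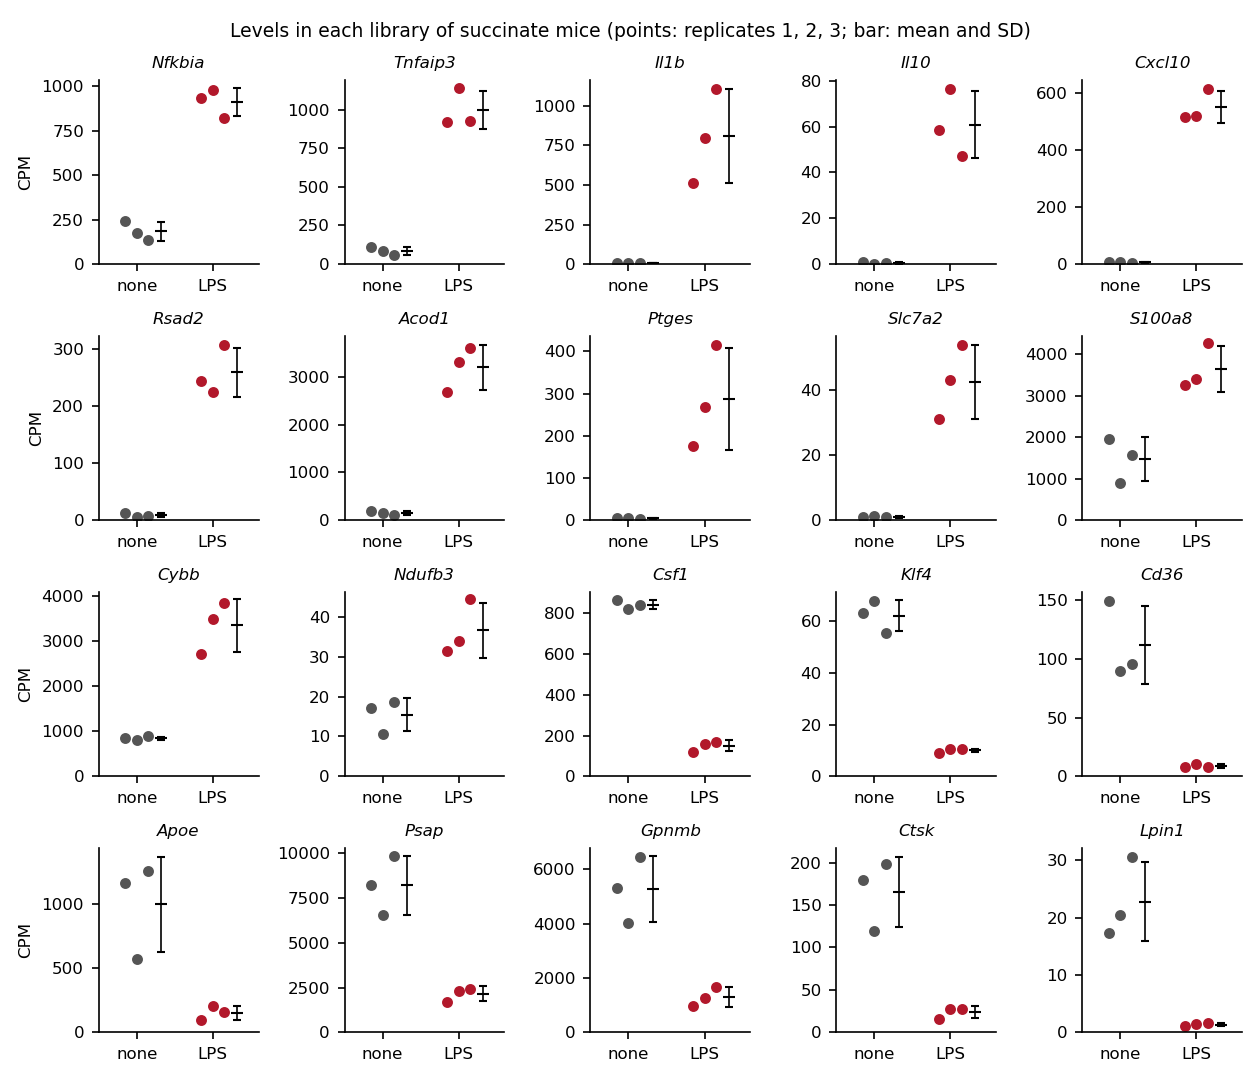
Each panel shows the level of 1 gene in CPM on a linear y axis that starts at 0, with 1 point for each of the 3 unstimulated libraries (grey) and the 3 LPS libraries (red) and the mean ± SD beside them. In all 20 genes, which were chosen and not sampled, the groups do not overlap. The panels from Nfkbia to Ndufb3 rise with LPS while those from Csf1 to Lpin1 fall. Groups without overlap were common: of the 14324 genes tested, 2851 lay higher and 3073 lower with LPS in this way.

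The interferon arm rose broadly. Of 73 interferon-stimulated effector genes 58 rose (14.1% of all genes tested did) and 4 fell, with a median of 1.58, and their summed level went from between 1967 and 2308 CPM to between 3960 and 5749 CPM. Rsad2 (viperin), an enzyme that makes a chain-terminating nucleotide against viruses, had 12.6, 6.19 and 6.6 CPM in the unstimulated libraries and 244, 225 and 307 CPM in the LPS libraries (4.93 ± 0.25, adjusted p = 2.85e-09). Ifit1, which binds viral RNA caps, had 3.23, 1.4 and 1.59 CPM without LPS and 56.8, 51.4 and 75.3 CPM with it (4.88 ± 0.29). The ubiquitin-like Isg15 rose from 2.74 ± 1.96 to 65.8 ± 15.6 CPM (4.59 ± 0.36), the guanylate-binding Gbp5 from 1.44 ± 0.925 to 108 ± 30.1 CPM (6.22 ± 0.35) and Ifi205 from 2.15 ± 0.989 to 81.5 ± 47.9 CPM (5.24 ± 0.46). The fallers were Ifi27l2a (-0.95 ± 0.28), Ifi207 (-0.71 ± 0.16), Trim25 (-0.59 ± 0.11) and Ifitm3 (-0.56 ± 0.19), the last not called with unstimulated replicate 1 alone, and without unstimulated replicate 1 or LPS replicate 1 the fallers numbered 2. Of the 25 factors and receptors of this arm 10 rose and 3 fell (9 and 1 with unstimulated replicate 1 alone, where Stat2 was not called). Irf7, the amplifier of the interferon response, rose from 5.97 ± 1.58 to 29.8 ± 8.86 CPM (2.32 ± 0.26), and Jak2 (1.97 ± 0.12), Tyk2 (1.89 ± 0.16), Stat5a (2.07 ± 0.20) and Stat2 (0.59 ± 0.13) rose too. The list takes in all Jak kinases and STATs, Jak2 and Stat5a among them, not only those of the type I interferon receptor. Irf9 was not called in the main test (0.43, adjusted p = 0.0503), but was called in 8 of 17 alternative settings. By contrast Irf3 was level (-0.00 ± 0.11) and Irf8, a factor of the monocyte lineage, fell from 94.3 ± 40.4 to 30.9 ± 12.1 CPM (-1.61 ± 0.30).

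Some promoters of these genes carry letters that interferon and NF-kB factors are known to read. In RefSeq windows from 250 bases before to 50 after each start (GRCm38.p6), 9877 of the tested genes with a unique symbol had a window, and both strands were searched. GAAANNGAA, the core of the interferon-stimulated response element (ISRE), occurred in 8.9% of these genes, in 16.2% of those raised at least 2-fold, in 9.2% of those lowered at least 2-fold and in 35 of the 57 interferon-stimulated effector genes with a window (61.4%). The kB consensus occurred in 11.9% of all genes with a window, in 16.5% of those raised and 12.3% of those lowered at least 2-fold, in 5 of 11 chemokines and in 6 of the 8 NF-kB and IkB genes. TGANTCA (AP-1) occurred in 6.4% of all, 11.3% of the raised and 9.0% of the lowered genes, and TTGCNNAA (C/EBP) in 10.4%, 14.6% and 12.6%. A match is only a run of letters, and some genes have several windows, any of which could hold it. The 250 bases before the start of 4 raised genes are shown, 5′ to 3′ on the gene's strand, with every match to the motifs in capitals, because they place the 2 kinds of letters in genes with the changes given above. In Cxcl10 (chr5:92348890-92349139, minus strand) the ISRE letters begin 213 bases before the start, the kB letters 159, 104 and 103 bases before it and the AP-1 letters 74 bases before it. In Nfkbia (chr12:55492648-55492897, minus strand) the ISRE letters begin 53 and the kB letters 29 bases before the start. Rsad2 (chr12:26456453-26456702, minus strand) has ISRE letters at 119 and AP-1 letters at 87 bases, and Ifit1 (chr19:34640639-34640888, plus strand) has ISRE letters at 109, 103 and 84 bases.
Cxcl10: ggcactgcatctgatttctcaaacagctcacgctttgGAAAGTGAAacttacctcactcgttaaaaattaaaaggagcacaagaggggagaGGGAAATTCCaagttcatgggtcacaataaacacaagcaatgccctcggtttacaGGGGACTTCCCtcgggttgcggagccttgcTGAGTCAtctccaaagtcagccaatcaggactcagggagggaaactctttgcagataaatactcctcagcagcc
Nfkbia: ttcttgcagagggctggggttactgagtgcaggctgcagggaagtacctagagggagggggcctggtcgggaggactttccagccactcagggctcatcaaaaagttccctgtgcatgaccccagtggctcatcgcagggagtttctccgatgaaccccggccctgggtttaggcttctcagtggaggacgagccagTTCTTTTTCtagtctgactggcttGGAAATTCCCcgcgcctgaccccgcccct
Rsad2: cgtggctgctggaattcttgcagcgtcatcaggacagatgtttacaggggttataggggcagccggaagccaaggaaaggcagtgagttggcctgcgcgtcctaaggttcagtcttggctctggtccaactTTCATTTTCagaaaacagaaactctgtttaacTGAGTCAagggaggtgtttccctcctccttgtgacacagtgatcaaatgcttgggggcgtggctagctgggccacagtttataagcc
Ifit1: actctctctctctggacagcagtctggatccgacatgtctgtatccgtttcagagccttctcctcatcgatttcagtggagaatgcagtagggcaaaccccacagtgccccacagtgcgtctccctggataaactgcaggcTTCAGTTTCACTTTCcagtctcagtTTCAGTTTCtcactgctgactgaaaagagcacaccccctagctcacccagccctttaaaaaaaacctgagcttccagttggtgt

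Of 17 inflammasome and pyroptosis genes 5 rose (29.4%, where 14.1% of all genes did) and 4 fell (23.5%, where 16.2% did). The sensor Nlrp3 had 68, 59.6 and 60.9 CPM in the unstimulated libraries and 263, 364 and 321 CPM in the LPS libraries (2.33 ± 0.16, adjusted p = 7.41e-08), and Casp4 (caspase-11), which binds LPS inside the cell, had 40.8, 32.2 and 21.7 CPM without LPS and 175, 186 and 166 CPM with it (2.48 ± 0.18, adjusted p = 8.03e-08). Mefv (pyrin, 1.32 ± 0.10), Nlrc4 (1.28 ± 0.13) and Casp1 (1.03 ± 0.16) rose too. The adaptor Pycard (-0.28 ± 0.26) and the pore protein Gsdmd (-0.14 ± 0.18) were not called, while Gsdme (-0.98 ± 0.12), Naip6, Ninj1 and Txnip fell.

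Acute-phase and soluble defence proteins had 18 rises and 5 falls among 28 (median 1.25). The long pentraxin Ptx3 (chr3:66219910-66225805) had 1 count over the 3 unstimulated libraries and 3817 over the LPS libraries, at 50.2, 70.4 and 86.5 CPM, a ratio of 3560 (95% counting interval 639 to 141000). Saa3 (serum amyloid A3) had 3.7, 2.45 and 3.02 CPM in the unstimulated libraries and 478, 543 and 949.6 CPM in the LPS libraries (7.74 ± 0.31, adjusted p = 6.63e-10). The protease inhibitor Slpi rose from 59.5 ± 27.3 to 996 ± 75.5 CPM (4.06 ± 0.37), plasminogen activator inhibitor Serpinb2 from 2.74 ± 0.992 to 139 ± 10.8 CPM (5.66 ± 0.25), lipocalin Lcn2 from 468 ± 44.1 to 1415 ± 212 CPM (1.59 ± 0.17) and complement factor Cfb from 0.116 ± 0.117 to 6.52 ± 1.58 CPM (5.73 ± 0.55). The urokinase Plau fell (203 ± 51.3 to 33.8 ± 3.85 CPM, -2.59 ± 0.19), as did thrombospondin Thbs1 (-1.09 ± 0.22) and lysozyme Lyz2 (-0.73 ± 0.17). Complement C3 was at 1231 ± 225 to 1730 ± 95.3 CPM and was not called (adjusted p = 0.0543), but was called in 9 of 17 alternative settings.

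Succinate handling was for the most part level. Of 39 genes of itaconate synthesis, the TCA cycle and succinate handling 4 rose and 6 fell, shares below those of all genes tested (14.1% and 16.2%), with a median of 0. The subunits of succinate dehydrogenase were not called: Sdha had 154, 137 and 172 CPM in the unstimulated libraries and 135, 132 and 161 CPM in the LPS libraries (-0.11 ± 0.12, adjusted p = 0.517) and Sdhb 50.3, 34.2 and 53.8 CPM without LPS and 38.3, 43.9 and 52.2 CPM with it (-0.04 ± 0.17, adjusted p = 0.885). Beside Acod1, the rises were those of malic enzymes Me1 (1.53 ± 0.40) and Me2 (0.59 ± 0.12) and of Dld, the dehydrogenase shared by the pyruvate and oxoglutarate complexes (0.77 ± 0.10). The falls were led by the transaminase Got1 (141 ± 31.8 to 31.5 ± 7.72 CPM, -2.17 ± 0.18), Pdk2 (-2.18 ± 0.56) and glutamate dehydrogenase Glud1 (685 ± 92.5 to 336 ± 9.9 CPM, -1.03 ± 0.12). Against unstimulated replicate 1 alone 3 rose and 3 fell, and Me1, Me2 and Pdk2 were not called. The succinate receptor Sucnr1 had a count in 1 of the 6 libraries (0.113 CPM) and was not tested, and the succinate carrier Slc13a3 had 0.47, 0.7 and 0.796 CPM without LPS and 0.157, 0.226 and 0.538 CPM with it (adjusted p = 0.159).

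Glycolysis and the pentose phosphate pathway had 5 rises and 4 falls among 34 genes (14.7% and 11.8%, where 14.1% and 16.2% of all genes did, median 0.02). The counts were 2 and 5 with unstimulated replicate 1 alone, where Ldha was not called. Slc2a6, a transporter of the glucose carrier family on lysosomes, had 29.1, 19.3 and 23 CPM in the unstimulated libraries and 116, 169.5 and 195 CPM in the LPS libraries (2.75 ± 0.25, adjusted p = 9.52e-07), and Pfkm (1.66 ± 0.22) and Ldha (0.49 ± 0.14) rose. Pkm (2866 ± 182 to 2028 ± 122 CPM, -0.50 ± 0.10), Hk3 (-0.73 ± 0.13), Pgam1 (-0.57 ± 0.12) and the lactate exporter Slc16a3 (-0.99 ± 0.18) fell, and Hk2 (0.02 ± 0.16) and Pfkfb3 (0.04 ± 0.16) were level. Of 29 HIF-1 subunits, oxygen sensors and other targets 4 rose and 8 fell (2 and 6 with unstimulated replicate 1 alone). Hif1a had 256, 201 and 180.0 CPM in the unstimulated libraries and 239.5, 272 and 296 CPM in the LPS libraries (0.34 ± 0.13, adjusted p = 0.0596) and was called in 8 of 17 alternative settings. The sensor Vhl (-0.64 ± 0.10), the demethylase Kdm3a (-0.58 ± 0.14), the lipid droplet protein Plin2 (-0.58 ± 0.15) and Vegfa (-0.41 ± 0.14, adjusted p = 0.0435) fell, though Vegfa lost its call in 9 of 17 settings and Plin2 was not called with unstimulated replicate 1 alone. Ddit4 (20.6 ± 5.19 to 63.5 ± 8.86 CPM, 1.63 ± 0.20) and the transferrin receptor Tfrc (1.16 ± 0.11) rose.

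IL-4 receptor signalling had 5 rises and 2 falls among 12 genes (median 0.52), and 6 and 1 with unstimulated replicate 1 alone. Il4ra had 69.9, 78.7 and 67.4 CPM in the unstimulated libraries and 144, 169 and 209.9 CPM in the LPS libraries (1.28 ± 0.22, adjusted p = 0.000371), and the common gamma chain Il2rg rose by 1.29 ± 0.17. Stat6, the factor that the receptor activates, had 313, 300.2 and 349 CPM without LPS and 232, 251 and 257 CPM with it (-0.38 ± 0.10, adjusted p = 0.00775), a small fall that was not called with unstimulated replicate 1 alone, in the fit of the 6 libraries alone or without a filter on low counts. Targets of IL-4 went both ways, 10 up and 8 down of 26 (38.5% and 30.8%, where 14.1% and 16.2% of all genes rose and fell). Transglutaminase Tgm2 (33.4 ± 7.78 to 221 ± 44.6 CPM, 2.73 ± 0.21) and Ccl17 (4.51 ± 0.61) rose. Pparg, the lipid sensor of alternative activation, had 29.96, 21.5 and 49.9 CPM in the unstimulated libraries and 2.09, 2.71 and 4.14 CPM in the LPS libraries (-3.50 ± 0.30, adjusted p = 4.51e-07), and the scavenger Cd36 that it controls had 149.6, 89.8 and 95.4 CPM without LPS and 7.79, 10.9 and 7.8 CPM with it (-3.66 ± 0.25). The lectins Clec10a (-2.08 ± 0.40) and Clec7a (-1.39 ± 0.23) and the factor Klf4 (-2.64 ± 0.15) fell. Arg1 and Retnla were too low to test.

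Of 20 genes of nitric oxide, arginine and polyamine metabolism 6 rose and 3 fell (3 and 3 with unstimulated replicate 1 alone, 5 and 5 without unstimulated replicate 2). Nos2 had 3 counts over the unstimulated libraries and 1731 over the LPS libraries (32.1, 29.3 and 32.1 CPM), a ratio of 538 (184 to 2610). Slc7a2, the arginine transporter that feeds it, had 0.94, 1.28 and 0.853 CPM in the unstimulated libraries and 30.9, 42.9 and 53.5 CPM in the LPS libraries (5.36 ± 0.27, adjusted p = 2.73e-09), and Gch1, which makes its cofactor, rose by 1.03 ± 0.15. The adenosylmethionine decarboxylase Amd1 of polyamine synthesis fell (-1.60 ± 0.10). Of 20 genes of prostaglandin and leukotriene metabolism 8 rose and 4 fell (6 and 2 with unstimulated replicate 1 alone). The inducible synthases in series, Ptgs2 (24.1 ± 10.8 to 402 ± 91.3 CPM, 4.06 ± 0.27) and Ptges (4.79 ± 1.19 to 286 ± 121 CPM, 5.90 ± 0.30), rose, and Hpgd, the dehydrogenase that inactivates prostaglandin E2, had 7.81, 2.92 and 19.97 CPM in the unstimulated libraries and 0.157, 0.282 and 0.269 CPM in the LPS libraries (-5.40 ± 0.66, adjusted p = 1.53e-05). The prostaglandin D2 synthase Hpgds fell too (28.9 ± 7.78 to 9.17 ± 1.31 CPM, -1.66 ± 0.22).

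Of 33 NRF2 targets and antioxidant or oxidase genes 14 rose and 1 fell (median 0.56). With unstimulated replicate 1 alone 8 rose and 1 fell (median 0.26), and Txn1 was not called. Sod2, the mitochondrial superoxide dismutase, had 159, 109.7 and 101 CPM in the unstimulated libraries and 1076, 1187 and 1155 CPM in the LPS libraries (3.21 ± 0.16, adjusted p = 2.85e-09). The oxidase subunits Cybb (844 ± 37.8 to 3341 ± 581 CPM, 1.99 ± 0.13) and Ncf1 (1.55 ± 0.15), the cystine carrier Slc7a11 (1.36 ± 0.30), thioredoxin Txn1 (1.01 ± 0.24) and Prdx5 (1.67 ± 0.13) rose. The NRF2 targets Hmox1, at 2355, 1707 and 656 CPM without LPS and 2808, 2402 and 2489 CPM with it, and Nqo1 were not called (adjusted p = 0.26 and 0.139), and the flavoprotein Por fell (690.5 ± 35.1 to 284 ± 17.4 CPM, -1.28 ± 0.10).

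Respiratory chain transcripts gave a result that depended on which libraries entered. Of 70 nuclear-encoded subunits 13 rose and 1 fell (median 0.30), and of 12 mitochondrially encoded genes 5 rose (median 0.38). Ndufb3 of complex I had 17.1, 10.7 and 18.6 CPM in the unstimulated libraries and 31.5, 34 and 44.5 CPM in the LPS libraries (1.24 ± 0.20, adjusted p = 0.000236), and Atp5k (1.05 ± 0.31) and Ndufa5 (0.91 ± 0.27) followed. With unstimulated replicate 1 alone 1 nuclear-encoded gene rose (median 0.07), with Atp5k and Ndufa5 not called, and 2 mitochondrial ones did (3 without unstimulated replicate 2, 2 without LPS replicate 3). Without unstimulated replicate 2, the library with the lowest mitochondrial share of counts (0.901%), 4 nuclear-encoded genes rose (median 0.13), without LPS replicate 3 also 4 (0.23), and without unstimulated replicate 1 the number was 31 (0.46). The ribosomal protein share of counts was 3.854%, 2.724% and 3.454% in the unstimulated libraries and 3.887%, 3.707% and 3.852% in the LPS libraries.

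The surface of the cells changed in both directions. Of 39 scavenger, Fc and efferocytosis receptors 17 rose and 14 fell (12 and 8 with unstimulated replicate 1 alone, where Trem2 and Itgb5 were not called). Lectin receptors and activating receptors of the Trem family were among the risers: Clec4e (Mincle) had 854, 505 and 557 CPM in the unstimulated libraries and 1990, 2769 and 3016 CPM in the LPS libraries (2.02 ± 0.22, adjusted p = 4.9e-06), Clec5a rose by 1.90 ± 0.13 and Trem1 by 1.88 ± 0.19. Pilra had 21, 23.3 and 20.9 CPM without LPS and 162, 172 and 195 CPM with it (3.02 ± 0.12), and the scavenger Marco had 1 count without LPS and 154 with it (ratio 144, 25.4 to 5710). Trem2 (-1.26 ± 0.32), Stab1 (-1.32 ± 0.26), Scarb2 (-1.35 ± 0.12), Cd68 (-0.81 ± 0.19) and Itgb5 (-1.15 ± 0.26) fell with Cd36. Mertk, which takes up dying cells, was too low to test.

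Of 50 chemoattractant receptors and adhesion molecules 22 rose and 17 fell (20 and 10 with unstimulated replicate 1 alone, where Gpr183, Ccr1 and Ccr2 were not called). Those that rose included sensors of bacteria and metabolites: the formyl peptide receptor Fpr1 had 3.47, 2.69 and 1.93 CPM in the unstimulated libraries and 84.2, 112 and 93.7 CPM in the LPS libraries (5.16 ± 0.24, adjusted p = 1.96e-09), Fpr2 rose by 3.56 ± 0.26, the fatty acid receptor Gpr84 by 2.97 ± 0.17, and the adenosine receptor Adora2a had 19.9, 12.6 and 13 CPM without LPS and 132, 173 and 174 CPM with it (3.40 ± 0.19). Of the adhesion molecules, Icam1 rose from 34.6 ± 8.45 to 456 ± 48.1 CPM (3.72 ± 0.18) and Vcam1 from 91.9 ± 6.11 to 697 ± 52.1 CPM (2.92 ± 0.13). The fallers included receptors that hold or steer cells in marrow and blood. Cxcr4 had 832, 634 and 751 CPM in the unstimulated libraries and 182, 198 and 242 CPM in the LPS libraries (-1.83 ± 0.13, adjusted p = 7.02e-08), the lysophospholipid receptor Lpar6 fell from 105 ± 16.7 to 9.27 ± 3.45 CPM (-3.50 ± 0.23), and Gpr183 (-2.31 ± 0.50), S1pr1 (-1.89 ± 0.28), Ccr1 (-0.94 ± 0.25), the integrin chain Itgb7 (-2.08 ± 0.13) and the ATP-gated channel P2rx7 (-2.04 ± 0.19) were lower.

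In antigen presentation and co-stimulation 16 of 33 genes rose and 4 fell (10 and 4 with unstimulated replicate 1 alone, where Cd80, H2-K1 and Ciita were not called). Cd40 had 4.41, 3.33 and 3.07 CPM in the unstimulated libraries and 56.9, 94.5 and 104 CPM in the LPS libraries (4.56 ± 0.26, adjusted p = 1.01e-08), Icosl rose from 25.9 ± 5.4 to 214 ± 22 CPM (3.05 ± 0.15) and Cd80 by 1.61 ± 0.32, whereas Cd86, its partner as a ligand of Cd28, fell (141 ± 22.6 to 60.5 ± 13.6 CPM, -1.22 ± 0.16). Slamf1 had no count without LPS and 274 with it, at least 85.2-fold higher. Class I genes H2-K1 (0.52 ± 0.12), Tap1 (0.49 ± 0.17) and Nlrc5 (1.04 ± 0.18) rose, while the class II genes H2-Ab1 (0.07 ± 0.29) and H2-Aa (-0.47 ± 0.24) were not called, even though their activator Ciita rose from 1.81 ± 0.461 to 8.29 ± 5.2 CPM (2.18 ± 0.43).

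Transcription factors of the myeloid lineage had 19 falls and 9 rises among 42 (45.2% and 21.4%, where 16.2% and 14.1% of all genes fell and rose, median -0.33). With unstimulated replicate 1 alone 12 fell and 5 rose, and Mitf, Maf and Spi1 were not called. Klf4, a factor of monocyte differentiation, had 63.1, 67.8 and 55.6 CPM in the unstimulated libraries and 9.15, 10.4 and 10.4 CPM in the LPS libraries (-2.64 ± 0.15, adjusted p = 9.96e-09). The retinoid receptor partners Rxra (76.2 ± 4.77 to 16.7 ± 1.44 CPM, -2.19 ± 0.17) and Rara (-1.48 ± 0.19), Bhlhe41 (-2.60 ± 0.46), Tfeb (-1.02 ± 0.17), Mitf (-0.79 ± 0.24) and Cebpa (-0.63 ± 0.11) fell too. Ets2 rose (80.1 ± 25.9 to 319 ± 49.4 CPM, 1.99 ± 0.20), as did Maf (2.02 ± 0.49), Tfec (1.67 ± 0.13), Myb (1.12 ± 0.16) and Cebpd (1.09 ± 0.11). The lineage factor Spi1 (PU.1) moved little (0.34 ± 0.10). The TGF-beta factor Smad3 (205 ± 9.44 to 30.4 ± 1.76 CPM) and the inhibitor Smad6, in none of the lists, fell by 2.75 and 3.61 on the log2 scale.

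Survival genes of the Bcl2a1 family, which NF-kB controls, were among the largest rises: Bcl2a1d had 2.64, 1.46 and 1.42 CPM in the unstimulated libraries and 107, 160.1 and 234 CPM in the LPS libraries (6.50 ± 0.30), and Bcl2a1b (5.92 ± 0.45) and Bcl2a1a (8.66 ± 0.48) rose beside it. These copies are nearly identical, so reads could be split among them and their single values are uncertain. Of 34 genes of this kind 18 rose and 7 fell (11 and 7 with unstimulated replicate 1 alone, where Bmf was not called). The caspase-8 inhibitor Cflar (257 ± 65.7 to 608 ± 68.4 CPM, 1.24 ± 0.17), Gadd45a (2.02 ± 0.27) and the death receptor Fas (2.37 ± 0.29) rose. Bax (-0.62 ± 0.12), Bmf (-1.07 ± 0.22) and the necroptosis kinase Ripk3 (143 ± 7.12 to 52.6 ± 3.95 CPM, -1.44 ± 0.10) fell. Mcl1 fell slightly (1074 ± 91.4 to 871 ± 39.1 CPM, -0.30 ± 0.10).

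Lysosomal genes had the largest share of falls of any list. Of 45 lysosomal and endolysosomal genes 31 fell and 3 rose, where 16.2% and 14.1% of all genes did, with a median of -0.77. Their summed level went from between 24560 and 31290 CPM to between 11790 and 14850 CPM, with no overlap. Falls of Mcoln3, Slc37a2, Engase and Fnip2 were known when the list was written, so these 4 are not independent evidence of its direction. Prosaposin (Psap, chr10:60277627-60302597), the precursor of the activators of sphingolipid breakdown, had 8229, 6560 and 9847 CPM in the unstimulated libraries and 1696, 2334 and 2443 CPM in the LPS libraries (-1.93 ± 0.19, adjusted p = 1.73e-06). Cathepsin K (Ctsk) had 179.9, 119 and 198 CPM without LPS and 15.4, 27.3 and 28 CPM with it (-2.81 ± 0.23, adjusted p = 2.87e-07), and cathepsins S (-1.57 ± 0.24), L (-1.41 ± 0.13), B (-0.88 ± 0.16) and D (-0.82 ± 0.14) fell. Hydrolases Gla (-1.34 ± 0.12), Hexa (-1.11 ± 0.15) and Gusb (-0.91 ± 0.17) fell. The cholesterol carriers Npc1 (932 ± 134 to 320.4 ± 18.4 CPM, -1.54 ± 0.13) and Npc2 (-0.96 ± 0.15), the proton pump subunits Atp6v1a (-1.05 ± 0.11) and Atp6v0d2 (-2.79 ± 0.29), the membrane protein Lamp1 (-0.73 ± 0.11) and progranulin Grn (-1.58 ± 0.16) fell as well. The 3 that rose were Slc15a3, a peptide transporter that carries bacterial muramyl dipeptide (201 ± 38 to 613 ± 99.5 CPM, 1.61 ± 0.19), the channel Mcoln2 (1.31 ± 0.27) and cathepsin C (Ctsc, 0.65 ± 0.13). The plot of 44 of the members shows them in order.

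**Figure D3:**
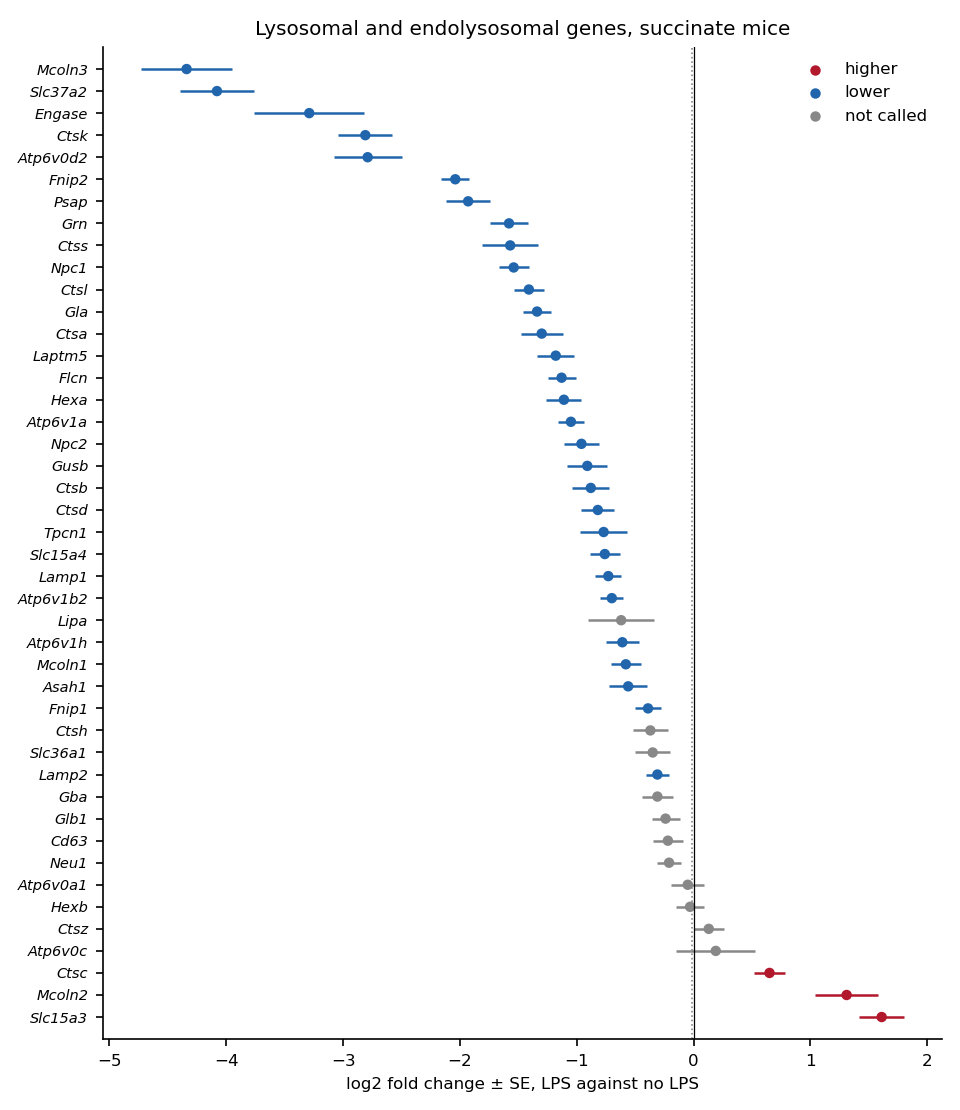
Each row is 1 of 44 of the 45 lysosomal and endolysosomal genes, with its log2 fold change with LPS as a point and ± 1 SE as a line (x axis), blue for the 30 drawn that fell, red for the 3 that rose and grey for those not called. The dotted line marks the median of all tested genes at -0.017, and the members run from -4.34 (Mcoln3) to 1.61 (Slc15a3).

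Many lysosomal promoters hold a CLEAR element, read by Tfeb, Tfe3 and Mitf. Its core letters TCACGTG were searched in the same windows after the falls above had been seen. They occurred in 7.1% of all genes with a window, in 4.6% of those raised and 9.7% of those lowered at least 2-fold, and in 9 of the 33 lysosomal genes with a window (27.3%). These 9 include genes that fell and genes that were not called, Glb1 and Slc36a1 among the latter. The 250 bases before the start of 2 lysosomal genes that fell are shown with the core in capitals, because both hold it on both strands as TCACGTGA. In Ctsa (chr2:164833523-164833772, plus strand; -1.30 ± 0.18) it begins 13 bases before the start, and in Gla (chrX:134601006-134601255, minus strand) 228 and 195 bases before it. Of the factors that read these letters, Tfeb had 82, 68.3 and 117 CPM without LPS and 38, 45.3 and 48.6 CPM with it (-1.02 ± 0.17, adjusted p = 0.000348), Mitf fell and Tfe3 was not called (0.05 ± 0.11).
Ctsa: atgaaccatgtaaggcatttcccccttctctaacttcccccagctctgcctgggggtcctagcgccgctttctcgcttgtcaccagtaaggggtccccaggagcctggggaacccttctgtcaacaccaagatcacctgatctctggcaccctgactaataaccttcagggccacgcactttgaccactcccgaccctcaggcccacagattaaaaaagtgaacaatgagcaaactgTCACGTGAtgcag
Gla: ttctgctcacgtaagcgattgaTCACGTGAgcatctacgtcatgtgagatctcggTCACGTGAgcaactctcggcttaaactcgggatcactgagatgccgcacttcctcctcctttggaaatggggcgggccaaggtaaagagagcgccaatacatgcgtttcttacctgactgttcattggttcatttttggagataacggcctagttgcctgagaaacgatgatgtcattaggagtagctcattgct

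Of 35 genes of cholesterol synthesis, uptake and export 2 rose (5.7%) and 8 fell (22.9%, where 16.2% of all genes did), and the median was 0.08. The synthesis enzymes Hmgcs1 (0.18 ± 0.11) and Sqle (0.21 ± 0.20) were not called. The falls were those of genes of export and esterification (Apoe, Abcg1, Abca1 and Soat1) and of the regulators Scap, Nr1h3, Srebf1 and Insig1. Apoe had 1162, 569 and 1256 CPM in the unstimulated libraries and 96.8, 204 and 158 CPM in the LPS libraries (-2.70 ± 0.30, adjusted p = 6.58e-06), the exporter Abcg1 103, 100.3 and 137 CPM without LPS and 15.2, 19.5 and 24.5 CPM with it (-2.52 ± 0.26) and the esterifying enzyme Soat1 fell from 749 ± 75.8 to 151 ± 17.6 CPM (-2.31 ± 0.17). With unstimulated replicate 1 alone 3 genes of the list fell and none rose, and Abca1, Scap, Nr1h3, Srebf1 and Insig1 were not called. No gene of the list rose without unstimulated replicate 1 or LPS replicate 3, and 5 fell without unstimulated replicate 3 or LPS replicate 1. Nceh1, which hydrolyses cholesterol esters and is in no list here, had 594, 522 and 650.4 CPM in the unstimulated libraries and 44.4, 62 and 68 CPM in the LPS libraries (-3.34 ± 0.16, adjusted p = 1.93e-09). Of 36 genes of lipid droplets and lipid enzymes 7 rose and 15 fell (6 and 8 with unstimulated replicate 1 alone). Lpin1, a phosphatidate phosphatase, had 17.3, 20.5 and 30.6 CPM without LPS and 1.05, 1.47 and 1.61 CPM with it (-4.05 ± 0.30), the fatty acid carrier Fabp5 fell from 134 ± 57 to 30.7 ± 10.2 CPM (-2.13 ± 0.32) and the phosphatase Inpp5d (SHIP1) fell by 1.14 on the log2 scale. The fatty acid ligase Acsl1 rose (118 ± 15.3 to 407 ± 36.3 CPM, 1.79 ± 0.12).

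Genes of iron handling rose in 9 of 20 cases and fell in 3. The metalloreductase Steap4 had 0.117, 0.292 and 0.114 CPM in the unstimulated libraries and 16.7, 20.9 and 19.2 CPM in the LPS libraries (6.71 ± 0.39, adjusted p = 1.24e-08), and the importers Slc39a14 (10.3 ± 4.03 to 64.6 ± 14.6 CPM, 2.65 ± 0.25) and Slc11a2 (2.15 ± 0.17) rose, while the exporter Slc40a1 (ferroportin) was not called (-0.20 ± 0.29). Of 31 dioxygenases that use oxoglutarate and release succinate 5 rose and 4 fell, near the shares of all genes, and without unstimulated replicate 1 the falls numbered 8. The DNA demethylase Tet1 stood out among them, with 1.06, 1.81 and 3.3 CPM in the unstimulated libraries and 24.7, 36.6 and 39.7 CPM in the LPS libraries (4.02 ± 0.32, adjusted p = 2.2e-07). Tet2 rose as well (99.6 ± 16.7 to 217 ± 19.1 CPM, 1.12 ± 0.17), Tet3 was not called (-0.41 ± 0.16), and Kdm6b, which removes a silencing mark at histone H3, had 179.9, 240.2 and 158 CPM without LPS and 238, 288 and 205 CPM with it (adjusted p = 0.197).

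Of 32 genes of the unfolded protein and integrated stress responses 6 rose and 9 fell (18.8% and 28.1%), and of 46 cell cycle genes 10 rose and 8 fell (21.7% and 17.4%), where 14.1% and 16.2% of all genes rose and fell. The stress sensor Ern1 fell (-0.92 ± 0.12) and the serine synthesis enzyme Phgdh rose (169.8 ± 22.4 to 399.9 ± 73.4 CPM, 1.24 ± 0.14), while Atf4 (-0.02 ± 0.13) and Hspa5 (0.19 ± 0.19) were level. The proliferation marker Mki67 had 791, 1102 and 932 CPM in the unstimulated libraries and 1100, 1164 and 1018 CPM in the LPS libraries and was not called (0.22 ± 0.13). Ccnd2 rose (1.40 ± 0.30) and Cenpf fell (-0.88 ± 0.18). With unstimulated replicate 1 alone 3 cell cycle genes rose and 1 fell, Cenpf was not called, and 3 stress response genes rose and 5 fell. Without unstimulated replicate 3, LPS replicate 1 or LPS replicate 2 the cell cycle genes that fell numbered 4. The plot of the gene lists sets these counts beside one another.

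**Figure D4:**
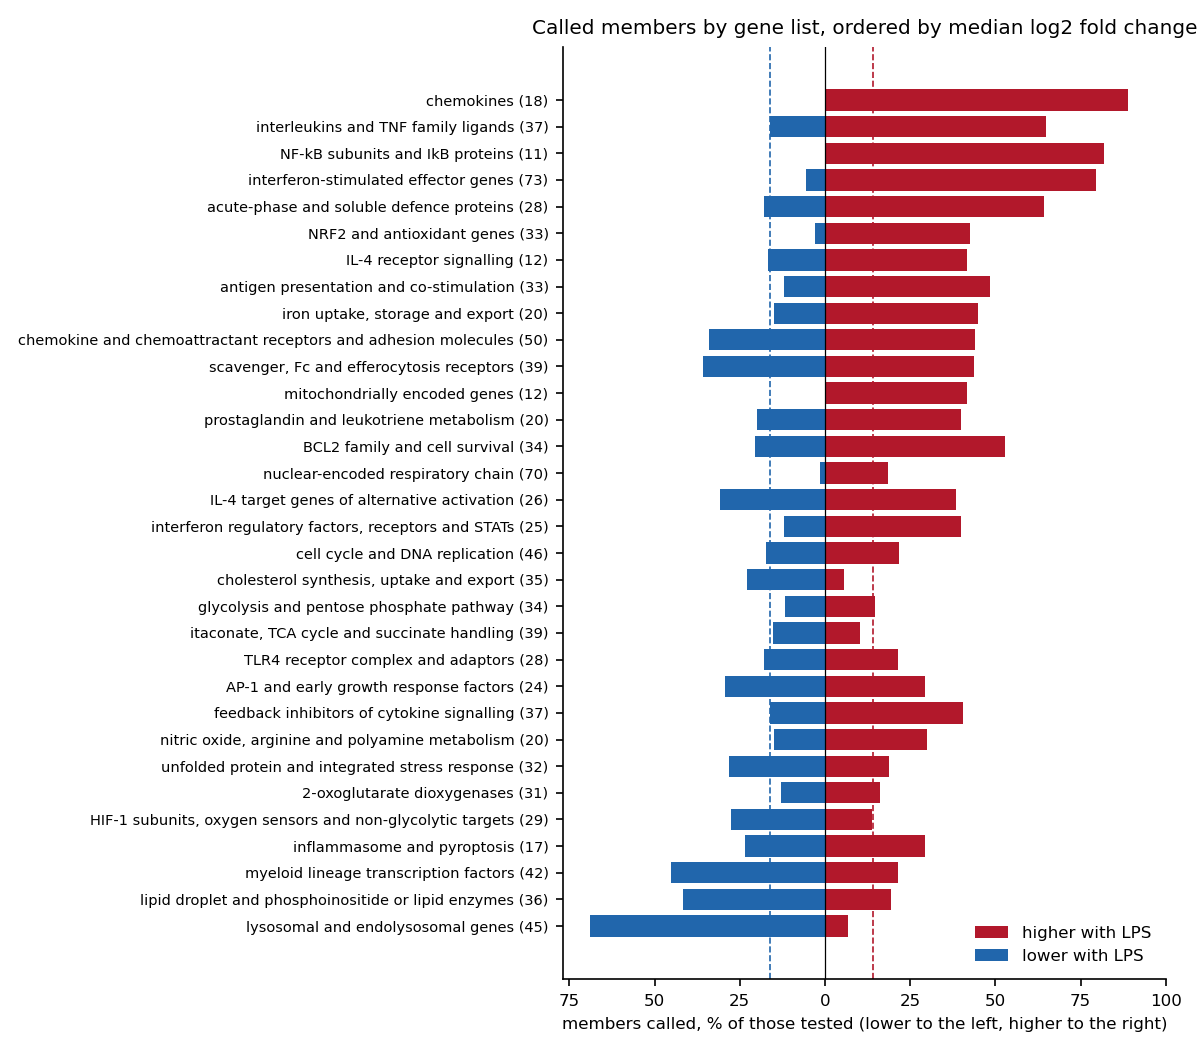
For each of 32 gene lists (number of tested members in brackets) the red bar to the right is the percentage of members called higher with LPS and the blue bar to the left the percentage called lower. Dashed lines mark the shares of all tested genes, 14.1% and 16.2%, and the lists run from chemokines at the top (16 of 18 higher) to lysosomal genes at the bottom (31 of 45 lower).

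Markers of other marrow cells were read beside these changes, and their part in the results was not tested. In bulk RNA, fewer cells of a type and less RNA per cell cannot be told apart. Of 17 neutrophil markers 7 rose and 2 fell (41.2% and 11.8%, where 14.1% and 16.2% of all genes rose and fell). Their summed level was 10170 to 13410 CPM without LPS and 20220 to 23450 CPM with it. Only 3 rose with unstimulated replicate 1 alone, where S100a8, S100a9, Camp and Ngp were not called. The risers were S100a8, S100a9, Lcn2, Camp (1.19 ± 0.26), Ctsg (1.12 ± 0.24), Prtn3 (0.80 ± 0.20) and Ngp (0.79 ± 0.19). Mmp8 (-1.31 ± 0.18) and Cxcr2 (-1.04 ± 0.18) fell. Lactoferrin Ltf was level at 892, 854 and 869 CPM and 827, 957 and 831 CPM. Of 8 progenitor markers Kit (52.6 ± 9.8 to 187 ± 13.6 CPM, 1.83 ± 0.16) and Myb rose, and Cd34 and Flt3, both under 5 CPM, were not called. Of 7 macrophage markers Vcam1, Spic (1.80 ± 0.40) and Marco rose, while Adgre1 (0.47 ± 0.23) was not called and the 3 complement C1q genes were under 0.5 CPM in both groups. Of 13 dendritic cell markers Ccr7 (3.58 ± 0.187 to 27.3 ± 9.21 CPM, 2.93 ± 0.33), Zbtb46 and Siglech rose. T and NK, B, erythroid, eosinophil, basophil and mast cell, and platelet markers, with 3 to 11 tested members, had at most 2 called members each in a direction. Few calls did not mean level sums. Erythroid markers summed to 122.1 to 154.7 CPM without LPS and 264.5 to 341.5 CPM with it. Progenitor markers went from 102.3 to 147.4 CPM to 292.6 to 369.1 CPM. Their median log2 fold change was -0.44, however, and Kit made up much of their sum. Macrophage markers went from 983 to 2762 CPM to 3503 to 3810 CPM, and Hmox1, which was not called, held the largest part. Sums of T and NK and of eosinophil, basophil and mast cell markers were also higher in all LPS libraries. Platelet sums were lower, and B and dendritic cell sums overlapped. The T-cell receptor subunits Cd3d, Cd3e and Cd3g stayed under 0.5 CPM. Of 16 markers of Ly6C-high monocytes 4 rose (Hp, Ms4a4c, Ly6c2 and Cd14) and 5 fell, with F13a1, Fn1, Ccr2 and Lyz2 among them. Of 13 markers of Ly6C-low monocytes 4 rose and 2 fell, with Cx3cr1 not called (-0.61 ± 0.33) and Nr4a1 level (-0.03 ± 0.21).

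Some genes that rose lay side by side. Among tested protein-coding genes in chromosomal order, 18 runs of at least 4 neighbours had every member raised at least 2-fold, and they held 81 genes (9.6% of those raised at least 2-fold). For falls there were 9 runs with 40 genes (4.7%). The longest raised run, 7 genes over 399.3 kb on chromosome 1 (chr1:173849126-174248450), held the interferon-inducible Mndal, Ifi211, Ifi203, Ifi202b and Ifi205 and had a median of 3.36. Others were the Ifit genes on chromosome 19 (chr19:34550694-34613401, median 3.18), Gbp5, Gbp7, Gbp3 and Gbp2 on chromosome 3 (median 3.53), Cxcl3, Cxcl1 and Cxcl2 on chromosome 5 (4.46), Fpr1, Fpr2 and Has1 on chromosome 17 (4.36) and Ccl22, Cx3cl1 and Ccl17 on chromosome 8 (3.62). A lowered run on chromosome 3 held the receptors Sirpb1a, Sirpb1b and Sirpb1c (median -1.47). Members of such families are similar in sequence, so reads could be shared among them. Genes raised at least 2-fold were shorter and had fewer exons than those lowered at least 2-fold: the median exonic length was 3523 against 4550 bases (3883 over all tested genes) and the median of the largest exon number 6 against 9 (8 over all). The 2 sets also differed in median level without LPS (3.35 against 15.2 CPM) and in protein-coding share (83.2% against 88.4%). The filter on low counts shapes both sets, so length and exon number are not read as a result about the response. Among genes without a protein, the precursor of the microRNA miR-155, Mir155hg, had 2.12, 1.28 and 0.853 CPM in the unstimulated libraries and 24.7, 36.2 and 38.9 CPM in the LPS libraries (4.55 ± 0.31, adjusted p = 5.04e-08). It was picked outside the rules for named genes, and its values in the alternative settings are not given.

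The response was then set beside that of control mice, with which it shares no library. Of the 4331 genes called in succinate mice 3316 were called in the same direction in control mice, 1 was called in the opposite direction and 1014 were called in succinate mice alone, which by itself does not show a difference. The test of the difference, the interaction, called 0 genes in either direction (0% of 14324). By unadjusted p below 0.05, 560 genes passed, 135 with a positive difference (succinate minus control mice) and 425 with a negative one. The sign is not the size of the response, since a deeper fall in succinate mice also counts as negative. This split depends on the scaling, and with library size alone it was 290 against 237. DESeq2 called 3 genes, all with a negative difference, and limma-voom called 0. The smallest adjusted p of all genes tested was 0.984.

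Genes with small unadjusted interaction p, predicted genes left out, are given as values, none having passed the adjustment. Peli1, a ubiquitin ligase of the Irak pathway, rose by 1.65 ± 0.12 in succinate mice and by 2.45 ± 0.12 in control mice (difference -0.80 ± 0.16, unadjusted p = 0.00021). The Notch regulator Dtx2 rose by 1.86 ± 0.15 and 2.76 ± 0.15 in the same order, and the difference for the growth factor receptor Met was -1.18 ± 0.28. Ndrg1, a target of HIF-1, had 135, 173 and 125 CPM without LPS and 148, 199.7 and 206 CPM with it in succinate mice and a log2 fold change of 0.35 ± 0.15, against 1.23 ± 0.15 in control mice (unadjusted p = 0.000993). Por had -1.28 ± 0.10 in succinate mice and -0.69 ± 0.10 in control mice. On the other side, the IL-4 target Mgl2 had 0.81 ± 0.21 in succinate mice and -0.17 ± 0.21 in control mice (unadjusted p = 0.00488), Cx3cr1 -0.61 ± 0.33 and -1.99 ± 0.34, and Egr1 -1.84 ± 0.29 and -2.97 ± 0.31. The gene called in opposite directions, the predicted processed pseudogene Gm10705 (chr3:87207545-87208005), had 16, 8.05 and 16 CPM without LPS and 4.34, 5.13 and 7.48 CPM with it in succinate mice (-1.24 ± 0.35, adjusted p = 0.0149), a change of 1.56 ± 0.37 in control mice and an unadjusted interaction p of 7.69e-05. Medians of gene lists, given without a test of their difference, were 4.46 and 4.47 for chemokines, 1.58 and 1.99 for interferon-stimulated genes and -0.77 and -0.64 for lysosomal genes, in succinate and control mice.

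**Figure D5:**
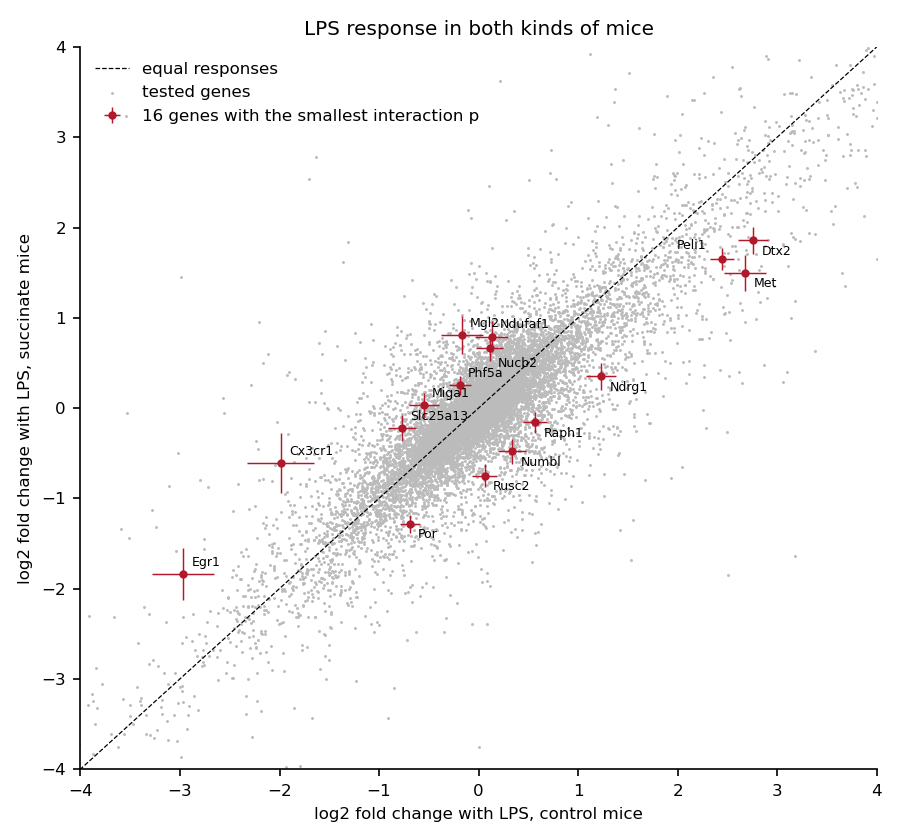
Each grey point is 1 tested gene, with its log2 fold change with LPS in control mice on the x axis and in succinate mice on the y axis. Both axes end at 4 in either direction, which leaves out 233 genes. The 16 red points with ± 1 SE lines are the genes with the smallest unadjusted interaction p among those of at least 10 CPM in a group, 8 in each direction, with predicted, ribosomal protein, immune receptor and mitochondrial genes left out, and none of them passed the adjusted test.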

How the data were processed

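RNA-seq was done on total RNA of CD11b+ Ly6C-high bone-marrow monocytes, 12 libraries in 4 groups of 3 by the labels. The authors deposited 1 table of raw read counts per gene for each library. Per the submitters' processing notes, Trim Galore and the mm10 build were used. Aligner, counter and strand setting were not given in the sources read. Total counts ran from 15975882 to 18306747, and no 2 libraries of the same group agreed within sampling noise. Pairs across groups were not checked. Of 28563 genes with a count, 14324 passed edgeR's filterByExpr and 14239 did not. Counts were fitted in edgeR 4.0.16 (R 4.3.3) with a mean per group over all 12 libraries, TMM scaling and the quasi-likelihood test, with Benjamini-Hochberg adjustment, calls at 0.05 and SE taken from the F statistic. The fit was tested on simulated data. CPM used scaled library sizes, and TPM and positions used GENCODE M21 (GRCm38). Named genes were the 15 called genes per direction with the largest fold change (at least 10 CPM in the higher group, groups not overlapping), the 10 with the largest CPM difference, the 5 with the smallest p, list members with the smallest p or a role, and 8 per direction by interaction p, with predicted, ribosomal protein, immune receptor and mitochondrial genes left out of all but the list members. Mir155hg and Gm10705 were named outside these rules. The members and lists were chosen with earlier results of these data known. Replicate numbers were not taken as pairs, since the labels do not say whether same-numbered libraries belong together. Alternatives were other filters, scalings and tools (DESeq2 1.42.0, limma 3.58.1), a replicate block, a library class term, 1 library class, 6 libraries, a 2-fold threshold test and leaving out each library. Some genes are not reported here.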

Additional observations from a re-analysis of the deposited data

How the results depend on the processing

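Genes called higher and lower numbered 2013 and 2318, and 1181 and 1329 with unstimulated replicate 1 alone against the 3 LPS libraries, where fewer samples were compared (2358 of these genes kept call and direction). A test against a 2-fold threshold called 546 and 393. The fit of the 6 succinate libraries without the control libraries gave 1741 and 1766, and 3438 of the 4331 called genes kept call and direction. The replicate block gave 2304 and 2560 and 0 for the interaction. Same-numbered libraries correlated at 0.038, 0.015 and 0.377 in their deviations, and differently numbered ones at -0.312 to 0.29. With 3 replicates per group these values cannot decide whether the numbers are pairs, and they were not taken as such. Leaving out each library in turn gave 1626 to 2104 genes higher and 1748 to 2283 lower, and 0 for the interaction. The interaction called 71 genes with no filter on low counts and 3 with DESeq2. The log2 change of Mpo, not called and -0.10, turned to 0.566 with library class as a term. The cause was not tested. Low counts limit the genes left out by the filter.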
